A study of Mus musculus with 12 samples.

Results

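Forelimb buds of mouse embryos with a disrupted Tbx3 gene were compared with wild-type buds in 6 of the 12 bulk RNA-seq libraries of the study, 3 on each side. The 6 were taken by their group labels, Tbx3_del and Tbx3_WT, and were fitted alone. All are from Swiss albino embryos at E9.75 to E10 with 28 to 31 somites, and 1 pair of buds made 1 library. The wild types are labelled WT, with no allele named. The deficient embryos are Tbx3ΔVenus/ΔVenus: on both copies the start codon is taken over by a Venus reporter that ends in a transcription stop. No Cre is named for this allele, and neither litter nor embryo sex is given in the sources used here. The other 6 libraries, Prrx1-Cre;Hand2+/+ and Prrx1-Cre;Hand2Δ/Δc at E10 to E10.25 with 31 to 33 somites, entered only a test of the difference between both effects. Both of those groups carry the Cre, which acts in limb mesenchyme. The comparison asks which forelimb genes depend on TBX3. Genes of glycolysis and of the response to low oxygen, the SHH pathway and the Hox clusters were set apart by 3 lists, and the account below is about the others.

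TBX3 is a T-box transcription factor that acts mostly as a repressor. It binds DNA through its T-domain, at sites with the core GGTGTG. In the early limb bud it is made at the anterior and posterior margins, and reduced dosage in humans causes ulnar-mammary syndrome, with defects of the posterior forelimb.

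Levels are given in CPM, the usual scale of counts relative to the library total, here with TMM scaling factors, and fold changes as deficient over wild type on the log2 scale with edgeR's standard error (SE). A gene counted as called when edgeR's quasi-likelihood test gave it an adjusted p under 0.05. Total counts ran from 23.3 to 31.8 M per library, and the first principal component, with 33.1% of the variance, separated both groups. Tbx3 itself was at 78.0, 77.3 and 79.3 CPM in the wild types and at 80.6, 79.3 and 73.3 CPM in the deficient buds (adjusted p = 0.954). Its gene count thus shows no loss of Tbx3 RNA and does not check the label. Why it was unchanged with an allele described as ending in a transcription stop was not tested. The buds are called deficient as labelled. Forelimb mesenchyme markers were present: none of 10 was at 0, Prrx1 stood at 498 and 391 CPM (wild type and deficient means) and Twist1 at 368 and 356 CPM. The 10 summed to 2250.0 to 2367 CPM in the wild types and 1988 to 2219 CPM in the deficient buds. Of the 10, 4 lay lower without overlap and 0 higher, beside 9.95% and 10.7% of all genes tested. Xist and Y-linked genes showed 3 female wild types, but 2 male embryos (replicates 1 and 2) and 1 female (replicate 3) among the deficient ones. Sex is thus partly confounded with genotype. With sex as a covariate the genotype effect rests on deficient replicate 3 alone, because both male embryos are deficient. A call kept or lost in that fit, here and below, thus sets 1 deficient library against the 3 wild types. The same holds for the 4 female embryos alone, an alternative added after seeing the data.

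Outside the 3 lists, 115 of 15032 genes tested were called (0.765%), 74 higher (0.492%) and 41 lower (0.273%) in the deficient buds. Over all 15130 genes these shares were 1.01% called, 0.727% higher and 0.284% lower. In bulk buds, fewer cells that make a gene and less of its RNA per cell cannot be told apart. The rises were larger than the falls: the median log2 fold change was 0.99 for the 74 higher genes, of which 37 reached 2-fold, and -0.53 for the 41 lower genes, of which 7 did. Over all genes tested the median was -0.0030. Of the 153 called genes 142 were protein coding and 7 were processed pseudogenes. Chromosome 5, which carries Tbx3 (119670669 to 119684724), held 22 of them among 965 genes tested (2.28%). Among these, Gtpbp6, Zfp605, Gltp, Rplp0 and Tbx5, given below, lie between positions 110103975 and 119885219. The part of the allele's chromosome in these calls was not tested.

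The 3 deficient libraries gave these genes a similar size of change. For the 74 higher genes the median log2 ratio to the wild-type mean was 0.81, 1.01 and 0.94 in deficient replicates 1, 2 and 3, and for the 41 lower genes it was -0.49, -0.59 and -0.56. None of the 115 genes overlapped between groups, which the choice by adjusted p practically fixes with 3 libraries against 3. Replicate 1 was most often the deficient library nearest to the wild types, for 42 of the 74 higher and 23 of the 41 lower genes. The 31 called hypoxia and glycolysis genes were less even, at 0.58, 1.02 and 1.07, and replicate 1 was the nearest for 29 of them. Leaving out 1 library at a time, which also leaves fewer libraries to measure the spread, 8 of the 74 and 5 of the 41 kept the call all 6 times. The call was lost every time by 17 and 12. Outside the lists, 20 genes were called without wild-type replicate 2 and 169 without deficient replicate 1, with the other 4 cases between them: 42 and 34 without wild-type replicates 1 and 3, 37 and 45 without deficient replicates 2 and 3. With sex as a covariate 15 were called, 14 higher and 1 lower.

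**Figure D1:**
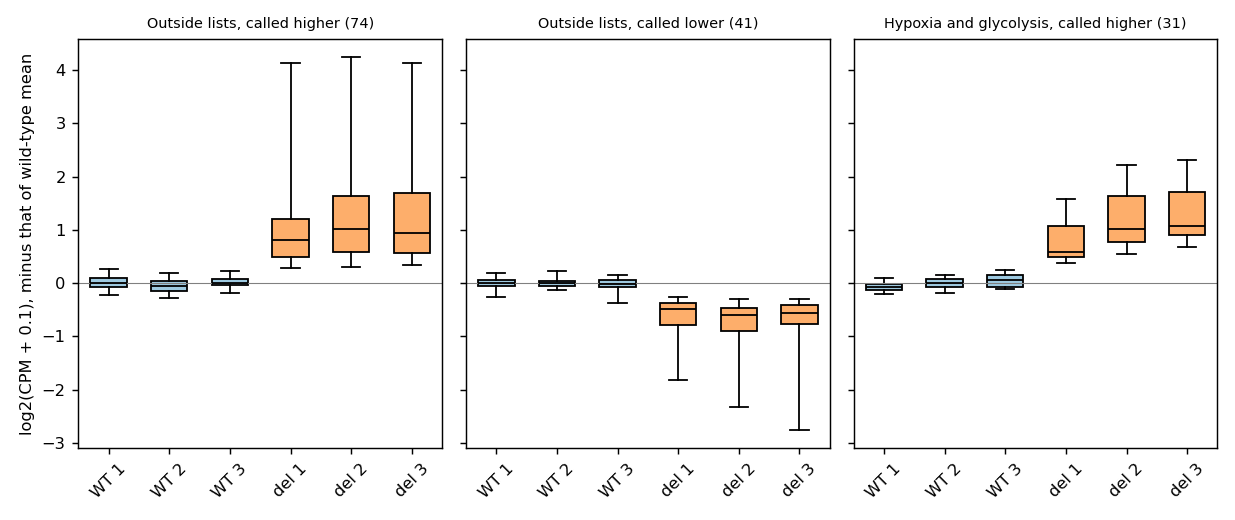
Log2 ratio of each library to the wild-type mean (CPM + 0.1) for the genes called higher or lower outside the hypoxia, SHH and Hox lists and for the called hypoxia and glycolysis genes. Boxes give the quartiles, inner lines the medians and whiskers the 5th and 95th percentiles. The 3 deficient libraries have medians of 0.81, 1.01 and 0.94 in the left panel, while deficient replicate 1 lies lowest in the right panel, at 0.58 against 1.02 and 1.07.

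A small set of genes held its call without each of the 6 libraries in turn. Pitx1 (ENSMUSG00000021506, GRCm38 chromosome 13, 55825051 to 55836192), a homeobox gene of the hindlimb programme, was at 0.896, 0.433 and 0.499 CPM in the wild types and 12.4, 13.3 and 12.4 CPM in the deficient buds. It rose by 4.38 on the log2 scale (SE 0.239, adjusted p = 0.000406), and the groups are far apart with almost no spread among the deficient libraries. Of 6 hindlimb markers tested 2 were called, Pitx1 and the Hox gene Hoxc9 (33.3%, beside 1.01% of all genes tested). Of the 6, 3 had a log2 fold change above 0 and 3 below. Without overlap 3 lay higher and 0 lower, beside 10.7% and 9.95% of all genes tested. Tmem114 (chromosome 16, 8409275 to 8425136), a claudin-like membrane protein gene, was at 0.683, 0.390 and 0.845 CPM against 4.23, 3.69 and 4.56 CPM, a rise of 2.68 (SE 0.276, adjusted p = 0.0090). Gtpbp6 (chromosome 5, 110103975 to 110108197), which encodes a GTP-binding protein, was at 23.0, 24.4 and 23.2 CPM against 36.3, 33.8 and 36.5 CPM, 1.51-fold higher (adjusted p = 0.00893). Pitx1 kept its call with sex as a covariate (adjusted p = 0.00544), and Tmem114 (0.0577) and Gtpbp6 (0.0605) lost theirs.

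The falls that held in the same way ran from -0.54 to -1.75 on the log2 scale. Nap1l5 (chromosome 6, 58905233 to 58907076), an imprinted gene for a nucleosome assembly protein family member, was at 4.65, 4.59 and 4.38 CPM in the wild types and at 1.38, 1.36 and 1.296 CPM in the deficient buds. It fell by 1.75 on the log2 scale (SE 0.158, adjusted p = 0.00854) with an SD of 0.144 CPM among the wild types and 0.0448 CPM among the deficient buds. Gltp (chromosome 5, 114669398 to 114690984), a glycolipid transfer protein, was at 29.2, 28.1 and 30.3 CPM against 19.2, 17.9 and 17.2 CPM (log2 fold change -0.69 with an SE of 0.0678, adjusted p = 0.00893). Olfm1 (chromosome 2, 28192992 to 28230736), a secreted olfactomedin glycoprotein, was at 91.3, 91.3 and 96.2 CPM against 65.6, 60.9 and 57.0 CPM (log2 fold change -0.60 with an SE of 0.0612, adjusted p = 0.00893). Dcun1d4 (chromosome 5, 73481000 to 73560794), a factor of cullin neddylation, was at 60.7, 64.5 and 60.1 CPM against 42.9, 41.5 and 43.0 CPM (log2 fold change -0.54 with an SE of 0.0492, adjusted p = 0.00854). In each of these 4 genes the highest deficient library lay below the lowest wild type. With sex as a covariate Olfm1 kept its call (adjusted p = 0.0471), and the other 3 lost it (0.0605 to 0.0824).

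**Figure D2:**
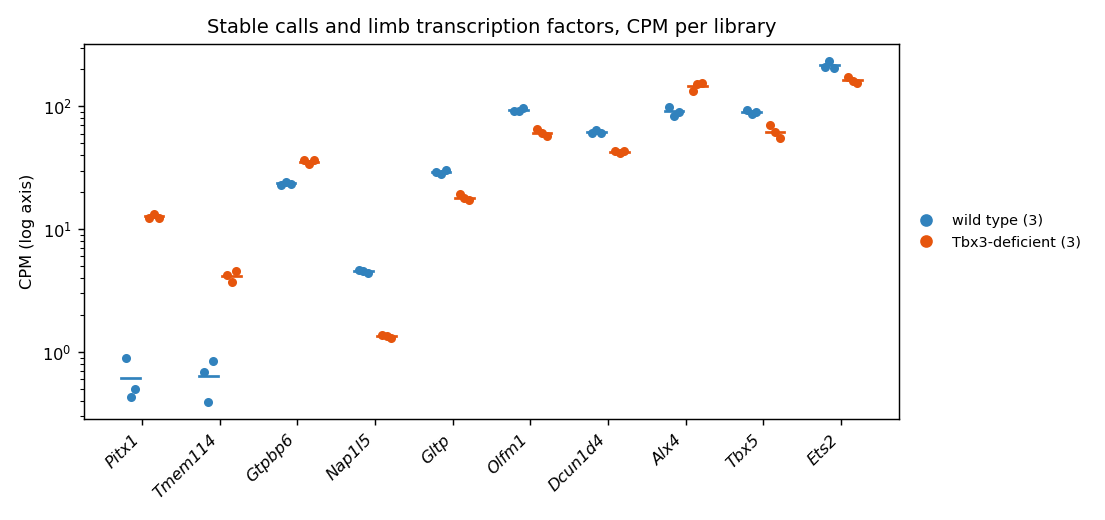
CPM per library on a log axis for 7 genes whose call held without each library in turn and for 3 limb transcription factor genes whose calls did not. Points are libraries and bars are group means of 3. Pitx1 and Tmem114 show the widest gaps, and no gene shows an overlap between groups.

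Among transcription factor genes, Tbx5 and Ets2 fell and Alx4 rose. Tbx5 (chromosome 5, 119832668 to 119885219), the T-box gene that starts the forelimb programme, was at 93.7, 87.1 and 89.7 CPM in the wild types and at 70.0, 61.9 and 55.1 CPM in the deficient buds (log2 fold change -0.53 with an SE of 0.0851, adjusted p = 0.0397). It was the only called gene of 9 T-box genes tested (11.1%, beside 1.01% of all genes tested). Tbx3 lies on the same chromosome (119670669 to 119684724), and the part of its allele in the Tbx5 call was not tested. Ets2, an ETS factor, was at 208, 234 and 205 CPM against 173, 162 and 153 CPM (log2 fold change -0.40, adjusted p = 0.0462). It was the only called gene of 32 limb mesenchyme factors (3.125%). Without overlap 8 of the 32 lay lower and 3 higher, beside 9.95% and 10.7% of all genes tested. Alx4 (chromosome 2, 93642384 to 93681339), an aristaless-type homeobox gene of the anterior bud, was at 99.3, 83.5 and 90.7 CPM against 133, 151 and 155 CPM (log2 fold change 0.68 with an SE of 0.0816, adjusted p = 0.0153). It was the only called gene of 13 anterior factors, 7.69% beside 1.01% of all genes tested, and 4 of the 13 lay higher without overlap and none lower, beside 10.7% and 9.95% of all genes. The Tbx5 and Ets2 calls ended without each library except deficient replicate 1 (adjusted p from 0.0809 to 0.168), and that of Alx4 without replicates 2 and 3 of either group (0.0507 to 0.0734). None of the 3 held with sex as a covariate (0.0619 to 0.208).

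Further called factor genes were at other levels. The following 4 genes fall outside the rule for named genes and were chosen after their values were seen. Sp9, a zinc finger factor of the apical ectodermal ridge, was at 0.512 to 0.883 CPM in the wild types and at 2.24 to 3.50 CPM in the deficient buds (4.32-fold higher, adjusted p = 0.0279). Hmx1, a homeobox gene of cranial neural crest, was at 0.269 to 0.555 CPM against 2.11 to 2.87 CPM (6.39-fold higher, adjusted p = 0.0149). Pou4f1, a POU factor best known from sensory neurons, was at 2.69, 2.95 and 5.07 CPM against 0.936, 0.410 and 0.444 CPM, 6.05-fold lower (adjusted p = 0.0359). Tshz2, a teashirt zinc finger gene, fell 1.38-fold from 42.7 to 31.0 CPM (adjusted p = 0.0234), with deficient libraries at 32.4, 30.3 and 30.3 CPM. The calls of Sp9 and Pou4f1 ended without each library except deficient replicate 1 (0.0532 to 0.129), that of Hmx1 without replicates 2 and 3 of the wild types or 2 of the deficient buds (0.0559 to 0.0781), and that of Tshz2 without replicates 1 and 2 of the wild types or 2 and 3 of the deficient buds (0.0821 to 0.0989). Sex as a covariate ended all 4 (0.111 to 0.263).

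Of 358 zinc finger genes with a Zfp symbol, 2 were called, both higher (0.559%, beside 1.01% called of all genes tested). Zfp605 (chromosome 5, 110110092 to 110129794), the neighbour of Gtpbp6 on the opposite strand, was at 5.72, 5.502 and 6.80 CPM in the wild types and 12.8, 14.8 and 14.3 CPM in the deficient buds (log2 fold change 1.21 with an SE of 0.125, adjusted p = 0.0090), and lost its call only without wild-type replicate 2 (0.052). Zfp395 was 1.36-fold higher, at 52.2, 47.8 and 52.9 CPM against 65.4, 71.8 and 70.7 CPM (adjusted p = 0.0252). Of 15 clock genes Bhlhe41, a bHLH repressor, was called (6.67%): 1.11, 1.78 and 1.498 CPM against 3.42, 3.69 and 4.81 CPM (2.72-fold higher, adjusted p = 0.0423). Without overlap 7 of the 15 lay higher and 0 lower, beside 10.7% and 9.95% of all genes tested, and the median was 0.22. Of 18 immediate early genes Ier3 was called (5.56%): 1.88, 2.12 and 1.96 CPM against 4.68, 4.83 and 6.74 CPM (2.72-fold higher, adjusted p = 0.025). Of these 18, 6 lay higher and 3 lower without overlap, at a median of 0.26. The list of low-oxygen genes that was set apart is not complete. For example, Bhlhe41, Stc1, Loxl2 and Mgarp, which stand outside it, are also known to be induced by low oxygen. Other genes named here may be as well. The calls of Zfp395, Bhlhe41 and Ier3 ended without each library except deficient replicate 1 (0.0567 to 0.133). With sex as a covariate Ier3 was called (0.0471), and the other 3 were not (0.0712 to 0.184).

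WNT genes changed in both directions. WNT ligands act through Frizzled receptors and co-receptors, and WNT5A drives limb outgrowth through the non-canonical branch with ROR receptors. Of 43 genes tested 5 were called (11.6%, beside 1.01% of all genes tested), 3 lower and 2 higher. The median of the list was -0.013, and 7 lay higher and 9 lower without overlap, beside 10.7% and 9.95% of all genes. Wnt5a (chromosome 14, 28504750 to 28527448) was at 125, 129 and 150.1 CPM in the wild types and at 103, 86.0 and 91.4 CPM in the deficient buds (log2 fold change -0.53 with an SE of 0.0906, adjusted p = 0.0462). The receptor gene Fzd10 (chromosome 5, 128600844 to 128604093) was at 148, 155 and 142 CPM against 111, 99.6 and 113 CPM (log2 fold change -0.46 with an SE of 0.063, adjusted p = 0.0259). Wif1, a secreted WNT inhibitor, was at 13.4, 11.5 and 12.2 CPM against 7.98, 5.996 and 6.96 CPM, 1.77-fold lower (adjusted p = 0.0428). In all 3 the wild types lay above every deficient library.

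A pair of WNT receptor genes rose. Ror1 (chromosome 4, 100095791 to 100444765), a receptor for WNT5A, was at 42.0, 37.9 and 37.6 CPM against 49.5, 49.9 and 49.5 CPM (log2 fold change 0.34 with an SE of 0.0564, adjusted p = 0.0424). Its deficient libraries hardly differed, with an SD of 0.231 CPM. Fzd1 was at 129, 116 and 129 CPM against 156, 153 and 163 CPM (1.26-fold higher, adjusted p = 0.0462). Rspo1, an R-spondin that strengthens WNT signals, stood at 3.71, 2.47 and 3.07 CPM against 6.51, 9.40 and 6.15 CPM and did not pass (adjusted p = 0.0524). These calls are near the threshold. Those of Wnt5a, Fzd10 and Wif1 ended without each library except deficient replicate 1 (adjusted p from 0.0527 to 0.161), that of Ror1 without each except wild-type replicate 1 (0.0718 to 0.146) and that of Fzd1 without any of the 6 (0.078 to 0.157). None held with sex as a covariate (0.246 to 0.335).

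Few genes of cell adhesion and matrix were called. The share was 3.45% of laminins and integrins, 2.86% of collagens, 2.33% of other matrix genes, 8.70% of cadherins and 1.56% of guidance genes, 1 or 2 genes a list, beside 1.01% of all genes tested. Integrins anchor cells to the matrix, cadherins and protocadherins join neighbouring cells, and lysyl oxidases and metalloproteinases remodel the matrix between them. Itga4 (chromosome 2, 79255426 to 79333123), the integrin α4 gene, was the only called gene of 29 laminin and integrin genes. It was at 27.1, 32.7 and 27.7 CPM in the wild types and at 15.7, 19.2 and 13.3 CPM in the deficient buds (log2 fold change -0.86 with an SE of 0.137, adjusted p = 0.0397). Col6a3 (chromosome 1, 90765923 to 90843971), a chain of the beaded-filament collagen VI, was the only called gene of 35 collagens, at 10.3, 12.95 and 7.22 CPM against 3.91, 3.66 and 3.44 CPM (log2 fold change -1.47 with an SE of 0.216, adjusted p = 0.033). The wild types spread widely for Col6a3, and the deficient libraries lay close together below them. Pcdh17 was at 15.1, 15.7 and 18.9 CPM against 9.56, 10.0 and 10.6 CPM, 1.65-fold lower (adjusted p = 0.0397). Kank4 (chromosome 4, 98754898 to 98817537), which links adhesions to the cytoskeleton, was at 32.2, 29.4 and 28.9 CPM against 21.4, 15.7 and 17.7 CPM, also 1.65-fold lower (adjusted p = 0.0375).

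On the rising side, Loxl2 (chromosome 14, 69609068 to 69695834), which crosslinks collagen, was at 91.1, 74.1 and 79.3 CPM against 129, 180.1 and 185 CPM (log2 fold change 1.02 with an SE of 0.14, adjusted p = 0.0264). It was the only called gene of 43 non-collagen matrix genes, and deficient replicate 1 was the lowest of its group. Mmp17 (chromosome 5, 129584169 to 129611099), a membrane-bound metalloproteinase, was at 5.72, 5.89 and 5.80 CPM against 10.6, 12.3 and 13.7 CPM (2.1-fold higher, adjusted p = 0.0153). The adhesion gene Ncam1 was at 14.4, 11.2 and 14.0 CPM against 25.9, 30.5 and 21.3 CPM (1.96-fold higher, adjusted p = 0.0364). Crb2, a gene of epithelial polarity, was at 17.2, 12.1 and 13.3 CPM against 30.5, 43.6 and 27.4 CPM (2.39-fold higher, adjusted p = 0.0375). Cdh23, a long cadherin, was at 0.469 to 0.922 CPM against 2.24 to 3.37 CPM (4.31-fold higher, adjusted p = 0.0314), so that 2 of 23 cadherin and protocadherin genes were called, 1 in each direction. Of 64 guidance genes Slit1, a repellent ligand for ROBO receptors, was called (1.41, 1.95 and 1.61 CPM against 3.74, 4.29 and 3.44 CPM, adjusted p = 0.0402). Sparcl1 (chromosome 5, 104079111 to 104113733), a matrix glycoprotein related to SPARC, was at 7.51, 6.15 and 7.14 CPM against 16.6, 19.2 and 23.9 CPM (log2 fold change 1.52 with an SE of 0.153, adjusted p = 0.00893).

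Sex as a covariate cannot show how firm the Sparcl1 call is, because only deficient replicate 3, its highest library (23.9 CPM), then counts. With 1 library left out, the Sparcl1 call was among the firmest of this group and ended only without wild-type replicate 2 (adjusted p = 0.052). Those of Pcdh17 and Slit1 ended without any of the 6 libraries (0.065 to 0.147). Loxl2 and Kank4 lost theirs without each library except deficient replicate 1 (0.0549 to 0.119), Itga4 without each except deficient replicate 2 (0.0751 to 0.124), Col6a3 and Cdh23 without each except wild-type replicate 3 (0.0503 to 0.12) and Ncam1 without each except deficient replicate 3 (0.0596 to 0.118). Mmp17 and Crb2 lost theirs without any wild type or deficient replicate 2 (0.0576 to 0.141). With sex as a covariate these 10 were not called (0.0577 to 0.363).

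**Figure D3:**
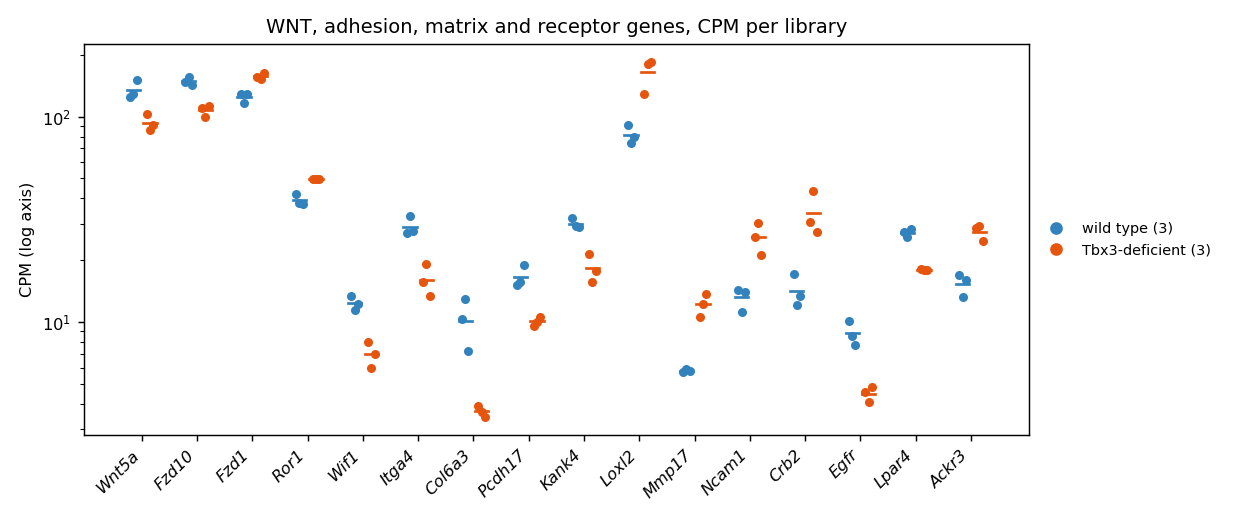
CPM per library on a log axis for WNT, adhesion, matrix and receptor genes called in the comparison. Points are libraries and bars are group means of 3. Deficient libraries lie below the wild types for Wnt5a, Fzd10, Wif1, Itga4, Col6a3, Pcdh17, Kank4, Egfr and Lpar4, and above them for the other 7 genes.

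Stretches upstream of 4 of these and the following called genes are shown because each holds the T-box core GGTGTG (or CACACC, the same letters read from the other strand), in capitals, and overlaps no annotated exon. They are the 250 bases before the RefSeq start (GRCm38.p6), 5′ to 3′ on the gene's strand: Kank4 at chr4:98817538-98817787 (minus strand), Itga4 at chr2:79255176-79255425, Ror1 at chr4:100095541-100095790 and Dlk1 at chr12:109452573-109452822 (plus strands).
Kank4: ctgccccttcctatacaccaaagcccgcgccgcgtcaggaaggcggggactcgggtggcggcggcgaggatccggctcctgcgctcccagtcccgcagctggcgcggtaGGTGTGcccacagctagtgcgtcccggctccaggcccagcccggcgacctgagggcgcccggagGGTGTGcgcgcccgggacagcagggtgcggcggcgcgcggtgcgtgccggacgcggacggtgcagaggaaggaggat
Itga4: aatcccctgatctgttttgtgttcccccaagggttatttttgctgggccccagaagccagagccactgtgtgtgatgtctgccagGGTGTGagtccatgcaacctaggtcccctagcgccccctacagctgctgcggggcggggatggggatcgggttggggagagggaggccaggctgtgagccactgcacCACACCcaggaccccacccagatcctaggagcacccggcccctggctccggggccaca
Ror1: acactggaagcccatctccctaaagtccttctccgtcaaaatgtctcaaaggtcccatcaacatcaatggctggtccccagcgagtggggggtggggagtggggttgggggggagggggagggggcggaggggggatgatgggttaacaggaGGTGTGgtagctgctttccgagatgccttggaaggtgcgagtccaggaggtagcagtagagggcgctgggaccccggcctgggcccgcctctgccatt
Dlk1: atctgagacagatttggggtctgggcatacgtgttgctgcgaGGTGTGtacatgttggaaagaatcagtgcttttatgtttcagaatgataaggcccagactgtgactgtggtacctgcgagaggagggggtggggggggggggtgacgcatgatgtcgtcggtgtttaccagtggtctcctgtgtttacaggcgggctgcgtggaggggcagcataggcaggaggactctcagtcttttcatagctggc
Kank4 and Itga4 fell and have 2 matches each, whereas Ror1 and Dlk1 rose and have 1 each. Searched on both strands, it stood in 16 of 78 genes called higher (20.5%), 6 of 30 called lower and 18.0% of 10835 genes tested with a RefSeq promoter. The longer half-site AGGTGTGA, which contains the core, was in 0 of those 78 and 30 windows and in 0.794% of the 10835. The core was chosen for display after this was seen. A match describes these letters and is not a binding site.

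Single called genes for receptors and phosphodiesterases are given next, which no fixed list groups, apart from the chemokine list. Egfr (chromosome 11, 16752203 to 16918158), the epidermal growth factor receptor gene, was at 10.2, 8.58 and 7.76 CPM in the wild types and at 4.56, 4.07 and 4.81 CPM in the deficient buds (log2 fold change -0.98 with an SE of 0.149, adjusted p = 0.0358). Lpar4 (X chromosome, 106920625 to 106933900), a lysophosphatidic acid receptor gene, was at 27.4, 25.9 and 28.3 CPM against 18.1, 17.9 and 17.9 CPM (log2 fold change -0.60 with an SE of 0.063, adjusted p = 0.0099). Lpar4 is X-linked, and its call was lost with sex as a covariate (adjusted p = 0.111). Ackr3 (chromosome 1, 90203980 to 90216751), a scavenging receptor for CXCL12, was at 16.9, 13.3 and 15.9 CPM against 28.6, 29.3 and 24.8 CPM (log2 fold change 0.84 with an SE of 0.108, adjusted p = 0.0217). Ackr3 was the only called gene of 14 chemokine and cytokine genes (7.14%, beside 1.01% of all genes tested). Its ligand gene Cxcl12 stood at 53.2, 37.6 and 53.8 CPM against 63.4, 66.5 and 55.1 CPM (adjusted p = 0.298).

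The phosphodiesterase gene Pde4b was at 3.50, 4.20 and 4.61 CPM against 7.24, 9.31 and 8.15 CPM, 2.01-fold higher (adjusted p = 0.0397). Pde7b, of the same enzyme family, was at 1.02, 1.60 and 1.42 CPM against 0.0814, 0.189 and 0.111 CPM, 9.99-fold lower (adjusted p = 0.0159). It falls outside the naming rule and was chosen after its values were seen, and its deficient level is a few counts per library. Lpar4 lost its call only without wild-type replicate 3 (adjusted p = 0.0532) and Egfr without any of the 6 libraries (0.0557 to 0.13). Ackr3 lost it without replicates 2 and 3 of the wild types or 2 of the deficient buds (0.0623 to 0.0896), Pde7b without replicates 2 and 3 of the wild types or 3 of the deficient buds (0.0701 to 0.0816) and Pde4b without each except deficient replicate 1 (0.0917 to 0.142). Sex as a covariate ended all 5 (0.111 to 0.338).

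Imprinted genes are expressed from the maternal or the paternal copy alone. Of 43 tested, 3 were called: Nap1l5, described above, lower, and the chromosome 12 genes Dlk1 and Rian higher (6.98% called, beside 1.01% of all genes tested). Dlk1 (109452823 to 109463336), a membrane protein of the Delta family made from the paternal copy, was at 367, 283 and 270.2 CPM in the wild types and at 465, 560.0 and 478 CPM in the deficient buds (log2 fold change 0.71 with an SE of 0.125, adjusted p = 0.0496). Rian (109603940 to 109661716), a non-coding RNA of the maternal copy, was at 208, 208 and 207 CPM against 316, 385 and 339 CPM (log2 fold change 0.74 with an SE of 0.0735, adjusted p = 0.00893). Other maternal RNAs of the same cluster, chosen after their values were seen, also lay higher without overlap but did not pass: Meg3 at 66.5, 71.9 and 102 CPM against 157, 112 and 131 CPM (adjusted p = 0.122), and Mirg at 5.59, 6.41 and 7.30 CPM against 10.0, 9.03 and 10.3 CPM (adjusted p = 0.103). Rian lost its call only without wild-type replicate 2 (0.052), Dlk1 without each library except wild-type replicate 1 (0.0612 to 0.16), and neither held with sex as a covariate (0.0819 and 0.365). The list as a whole had a median of -0.0047.

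Further large rises were in genes of varied function. Trim29, a tripartite-motif gene of epithelia, was at 7.64, 6.85 and 7.64 CPM in the wild types and 13.6, 13.6 and 14.6 CPM in the deficient buds (log2 fold change 0.92 with an SE of 0.102, adjusted p = 0.0125). Arg1, the urea cycle enzyme arginase, was at 7.60, 5.76 and 5.88 CPM against 14.3, 22.2 and 15.2 CPM (2.69-fold higher, adjusted p = 0.027). Stc1, the secreted stanniocalcin, was at 4.87, 4.42 and 4.69 CPM against 9.56, 8.58 and 12.5 CPM (2.19-fold higher, adjusted p = 0.0314). Mgarp, a mitochondrial protein gene, was at 2.99 to 3.53 CPM against 6.10 to 11.1 CPM, and Gm2a, the GM2 ganglioside activator, at 2.82 to 3.73 CPM against 6.31 to 7.83 CPM. Smtnl2, a smoothelin-like gene, was at 6.41 to 8.41 CPM against 13.3 to 22.4 CPM, and Prelid2 at 4.48 to 5.24 CPM against 7.73 to 11.6 CPM. The membrane protein genes Tmem45a and Tmem28 rose from 2.55 to 5.84 CPM and from 8.79 to 17.9 CPM. Hoxaas2, a non-coding RNA of the HoxA cluster, was at 2.60 to 3.46 CPM against 5.9998 to 6.53 CPM, and without a stated strand its reads cannot be told from those of overlapping genes. The tight-junction gene Cldn6 was at 33.9, 29.8 and 35.3 CPM against 42.7, 45.5 and 44.8 CPM (1.34-fold higher, adjusted p = 0.0439). It was the only called gene of 18 epithelial markers (5.56%, beside 1.01% of all genes tested).

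Falls of this kind were smaller. Sel1l3 was at 7.04, 9.05 and 9.33 CPM in the wild types and 4.11, 4.48 and 4.96 CPM in the deficient buds (1.88-fold lower, adjusted p = 0.0462). Ttc9c was at 100.1, 80.7 and 83.2 CPM against 59.1, 56.9 and 57.0 CPM (1.53-fold lower, adjusted p = 0.0252), and Gap43, a growth-cone protein gene, at 52.3, 46.5 and 46.2 CPM against 34.8, 34.5 and 35.1 CPM (1.39-fold lower, adjusted p = 0.021). In both genes the deficient libraries were nearly equal. Rrs1, a ribosome assembly factor, was at 157, 166 and 130.2 CPM against 99.0, 108 and 107 CPM, and Fam13b at 34.4 to 38.7 CPM against 24.5 to 28.4 CPM.

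Most of these 16 calls were lost whichever of several libraries was left out. Trim29 lost its call only without wild-type replicate 2 (adjusted p = 0.0619), and Cldn6 and Sel1l3 without any of the 6 (0.0557 to 0.166). Arg1 and Stc1 lost it without any wild type or deficient replicate 3 (0.052 to 0.114), Smtnl2 without each except deficient replicate 3 (0.0582 to 0.133), Hoxaas2 without replicates 1 and 2 of the wild types and 2 and 3 of the deficient buds (0.0851 to 0.114), and Gap43 and Ttc9c without replicates 2 and 3 of either group (0.0527 to 0.101). Rrs1 lost it without each except wild-type replicate 3 (0.0919 to 0.146). Gm2a, Mgarp, Prelid2, Tmem45a, Tmem28 and Fam13b lost it without each library except deficient replicate 1 (0.0615 to 0.157). With sex as a covariate Stc1 was called (0.0471) and the others were not (0.0801 to 0.435).

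The smallest p-values belonged to processed pseudogenes, among them Rplp0-ps1, named for the ribosomal gene Rplp0. Reads of near-identical sequences are hard to assign, so that each of these levels, and that of Rplp0 itself, is uncertain. Gm8730 was at 99.6, 106 and 107 CPM in the wild types and 877, 991 and 916 CPM in the deficient buds (adjusted p = 4.93e-07), Gm9625 at 2.23 to 2.77 CPM against 96.2 to 116 CPM (adjusted p = 4.93e-07) and Rplp0-ps1 at 0.0384 to 0.0866 CPM against 26.0 to 31.8 CPM (adjusted p = 9.34e-07). Rplp0 was at 2338, 2349.6 and 2296 CPM against 1477, 1688 and 1576 CPM (adjusted p = 0.00893). The part of read assignment between copies in this fall was not tested. The processed pseudogenes Gm15583 (0 CPM in each wild type, 4.41 to 5.36 CPM in the deficient buds) and Gm13123 (0, 0 and 0.154 CPM against 3.85 to 4.41 CPM) were called higher as well. All 6 kept the call without each library, and with sex as a covariate only Rplp0 lost it (0.087). In the fit of all 4 groups Gm8730 did not pass (adjusted p = 0.2).

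No gene of the mitochondrial genome that codes for protein was called by edgeR, yet all 13 had a log2 fold change below 0, and 7 lay lower without overlap against 9.95% of all genes tested. The mitochondrial genome encodes subunits of the respiratory chain and its own ribosomal RNAs. The summed level of the 13 genes was 10206, 9835 and 12997 CPM in the wild types and 8900, 7438 and 8034 CPM in the deficient buds. Their median log2 fold change was -0.41, 7 had an unadjusted p under 0.05, and DESeq2 called 4 and limma-voom 0. Nearest to the threshold was mt-Nd1, a complex I subunit, at 1499, 1256 and 1487 CPM against 1107, 822 and 866 CPM (log2 fold change -0.60 with an SE of 0.119, adjusted p = 0.0743). The large ribosomal RNA mt-Rnr2 was called, at 289.7, 258 and 217 CPM against 157, 139.6 and 151 CPM (log2 fold change -0.77 with an SE of 0.102, adjusted p = 0.0231). The small one, mt-Rnr1, had a log2 fold change of 0.28 (adjusted p = 0.35). Reads of the mitochondrial genome were 1.01% to 1.35% of all counts in the wild types and 0.776% to 0.937% in the deficient buds. The mt-Rnr2 call was lost without replicate 2 of the wild types or 2 and 3 of the deficient buds (0.0748 to 0.0989), with sex as a covariate (0.238) and in the fit of all 4 groups (0.323). Nuclear genes of the respiratory chain are given for comparison: 78 tested, 0 called by edgeR, and a median of -0.0011. Of the 78, 3 lay higher and 1 lower without overlap, beside 10.7% and 9.95% of all genes tested.

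Cholesterol and lipid synthesis genes had small differences with 1 sign. These genes share control by SREBP factors, which respond to the cell's sterol level. All 28 had a log2 fold change above 0, 14 lay higher without overlap (10.7% of all genes tested) and none lower, at a median of 0.19. None was called by edgeR, 16 had an unadjusted p under 0.05, and DESeq2 called 8 and limma-voom 0. Stard4, a sterol carrier, was at 56.1, 53.1 and 53.1 CPM in the wild types and 62.4, 66.9 and 70.5 CPM in the deficient buds (log2 fold change 0.30 with an SE of 0.0583, adjusted p = 0.0708). Lss, lanosterol synthase, was at 67.6, 68.8 and 63.8 CPM against 78.3, 78.5 and 91.1 CPM (adjusted p = 0.104), and Scd1, a fatty acid desaturase, at 107, 111 and 97.8 CPM against 120, 153 and 146 CPM (adjusted p = 0.105). The summed level of the list was 4598 to 5027 CPM in the wild types and 5212 to 5756 CPM in the deficient buds.

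**Figure D4:**
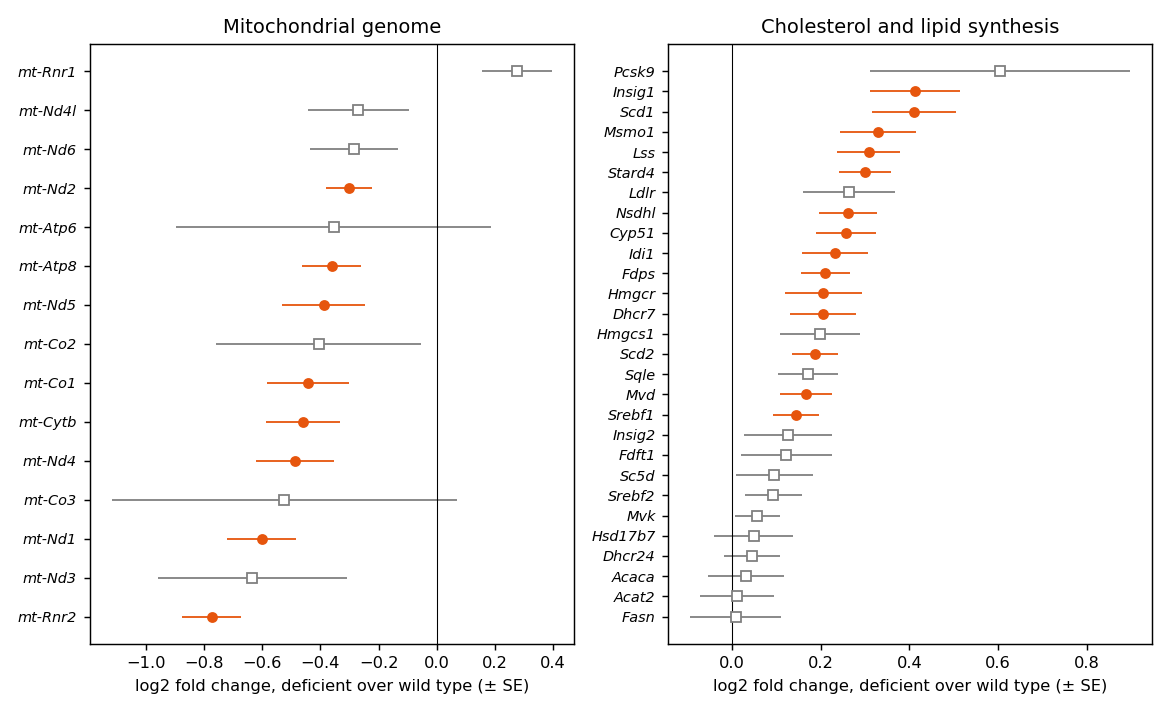
Log2 fold change (deficient over wild type) with its SE for the genes of the mitochondrial genome, ribosomal RNAs included, and for 28 cholesterol and lipid synthesis genes. Filled circles mark genes whose groups do not overlap and open squares those that do. All mitochondrial genes but mt-Rnr1 lie left of 0, and all 28 of the other list lie right of it.

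Lists of other signalling pathways held no called gene. Over 6 of them (BMP, TGFβ and activin, FGF, NOTCH, insulin-like growth factor and retinoic acid) edgeR called 0 of 119 genes, 33 had an unadjusted p under 0.05 (23 with a log2 fold change above 0), and DESeq2 called 13 and limma-voom 0. Without overlap, 26 of the 119 lay higher and 10 lower, beside 10.7% and 9.95% of all genes tested. The retinoic acid list, a vitamin A signalling pathway, had these counts: 8 of its 17 genes lay higher without overlap and 1 lower, 9 had an unadjusted p under 0.05, and DESeq2 called 6 and limma-voom 0. Its summed level was 1260.1 to 1366 CPM in the wild types and 1421 to 1440 CPM in the deficient buds. Crabp1, a retinoic acid binding protein, stood at 408, 410 and 420 CPM against 461, 492 and 510 CPM (adjusted p = 0.0967), and Cyp26b1, which breaks retinoic acid down, at 75.9, 65.5 and 86.1 CPM against 113, 94.5 and 111 CPM (adjusted p = 0.0994). Rdh10, an enzyme of its synthesis, stood at 34.3, 31.6 and 29.9 CPM against 38.0, 55.1 and 45.8 CPM (adjusted p = 0.113). The NOTCH ligand gene Jag1 stood at 15.7, 13.8 and 15.9 CPM in the wild types and 20.5, 25.2 and 20.2 CPM in the deficient buds (log2 fold change 0.54, adjusted p = 0.0787). Its target Hes1 was at 36.9 and 42.8 CPM (wild type and deficient means, adjusted p = 0.191). Id2, a BMP target, was at 79.0, 83.4 and 76.9 CPM against 91.7, 102 and 95.4 CPM (log2 fold change 0.27, adjusted p = 0.0843). Pik3r3, a regulatory subunit of PI3 kinase, was at 57.8, 65.1 and 65.3 CPM against 50.9, 44.8 and 48.4 CPM (log2 fold change -0.39, adjusted p = 0.0546). Fgf9 (1.37 and 2.08 CPM, adjusted p = 0.264) and the activin antagonist Fst (1.24 and 3.07 CPM, adjusted p = 0.199) had low levels.

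Lists of cell state likewise held no call and had medians near 0. Of 82 genes of replication, mitosis and the cyclin network edgeR called 0, with 7 at an unadjusted p under 0.05, 3 called by DESeq2 and 0 by limma-voom. The median was 0.0036, and 6 lay higher and 3 lower without overlap, beside 10.7% and 9.95% of all genes tested. The replication helicase gene Mcm6 stood at 310.0 and 340.3 CPM and the mitotic kinesin gene Kif23 at 85.9 and 96.6 CPM (adjusted p = 0.34 and 0.215). Nearest to the threshold were Ccng2, an atypical cyclin (35.7 and 46.6 CPM, adjusted p = 0.0793), and Mycl (52.8 and 43.3 CPM, adjusted p = 0.0847). Over p53 and cell death, autophagy, ATF4, chaperone and proteasome genes, 0 of 162 were called, 25 had an unadjusted p under 0.05, and DESeq2 called 3 and limma-voom 0, at a median of -0.038. Without overlap 8 of the 162 lay higher and 28 lower, beside 10.7% and 9.95% of all genes tested. Of the 28, 11 were among 44 proteasome genes, of which 0 lay higher. The largest log2 fold change there was that of Vldlr, a lipoprotein receptor (1.21, adjusted p = 0.0762), at 5.46, 7.11 and 8.53 CPM against 11.3, 16.9 and 20.7 CPM. Over histone demethylase, polycomb, DNA methyltransferase and splicing factor genes 0 of 97 were called, 11 had an unadjusted p under 0.05, and DESeq2 called 4 and limma-voom 0. Of the 97, 8 lay higher and 15 lower without overlap, beside the same shares of all genes. Kdm7a stood at 54.1 and 69.2 CPM (adjusted p = 0.0906) and Dnmt3b at 80.7 and 67.3 CPM (adjusted p = 0.128).

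**Figure D5:**
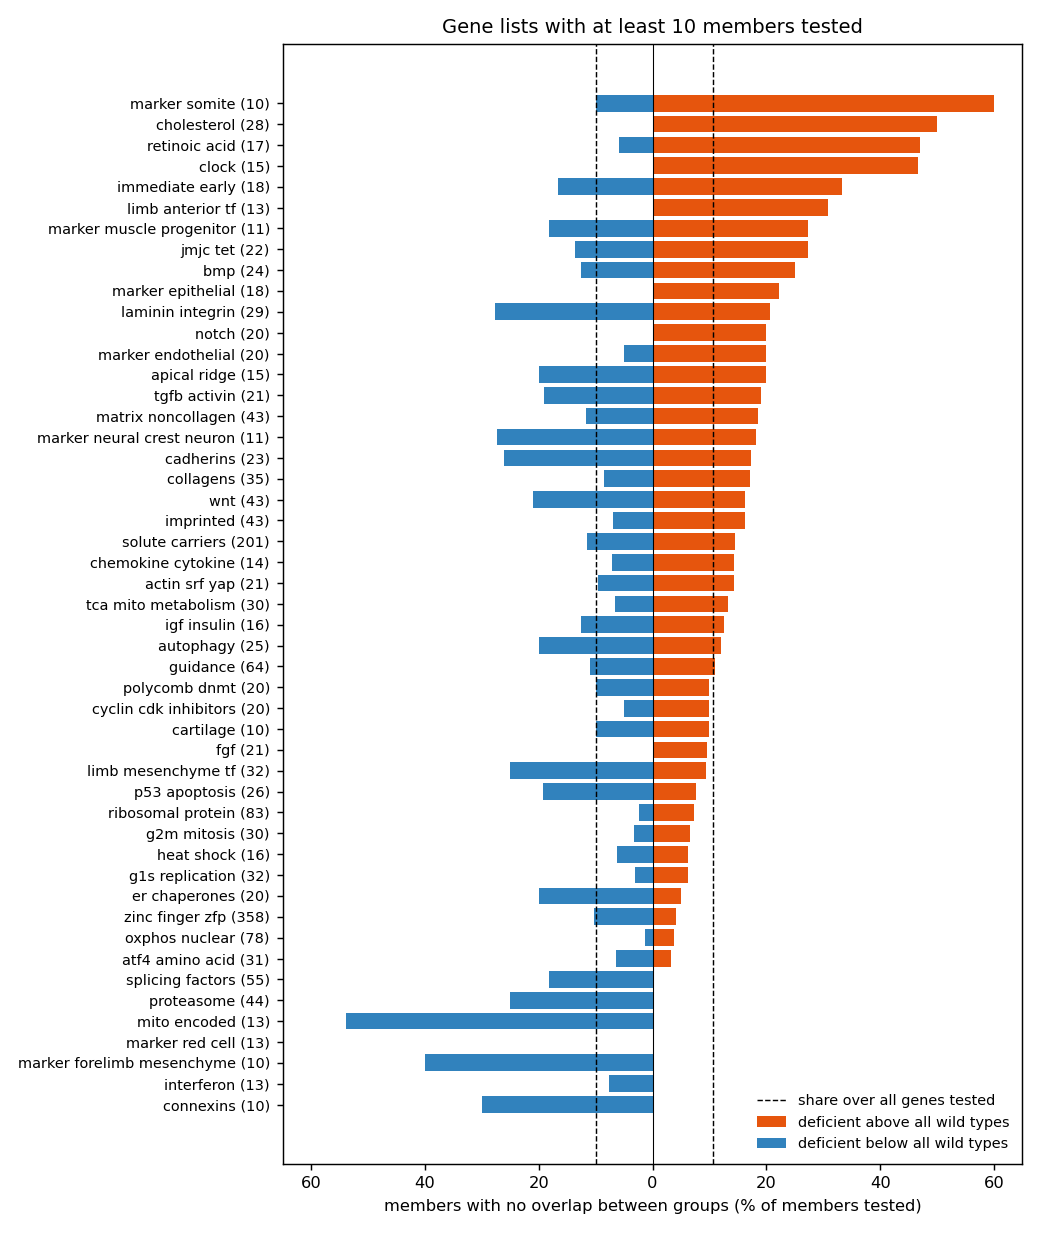
Share of members whose groups do not overlap, higher to the right and lower to the left, for each gene list with at least 10 members tested (number in brackets). Dashed lines mark the shares over all genes tested, 10.7% higher and 9.95% lower. Cholesterol genes (14 of 28) and somite markers (6 of 10) reach far to the right, and mitochondrially encoded genes (7 of 13) far to the left.

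Markers of other cells that a dissected bud can hold differed too, though none of 81 in 8 lists was called by edgeR (28 at an unadjusted p under 0.05, 13 called by DESeq2, 0 by limma-voom). Body wall and coelomic markers summed to 24.998 to 73.2 CPM in the wild types and 78.6 to 142 CPM in the deficient buds. Of 9 tested, 4 lay higher and 0 lower without overlap, beside 10.7% and 9.95% of all genes tested, and the median was 1.56. Gata6 of this list was at 20.7, 5.46 and 7.95 CPM against 32.4, 43.5 and 24.1 CPM (adjusted p = 0.174). Macrophage markers summed to 3.80 to 8.33 CPM against 10.8 to 13.3 CPM, with 4 of 6 higher and 0 lower without overlap, beside the same shares. The macrophage receptor gene Csf1r was at 0.896, 0.303 and 1.96 CPM against 3.17, 2.68 and 3.33 CPM (adjusted p = 0.227). Somite markers summed to 109.9 to 117 CPM against 126 to 148 CPM, with 6 of 10 higher and 1 lower without overlap. Meox1, a somite homeobox gene, was at 18.95, 21.9 and 20.2 CPM against 28.2, 42.6 and 35.4 CPM (log2 fold change 0.80, adjusted p = 0.0512). No marker of the body wall and macrophage lists was at 0 in all 6 libraries, and 1 of the somite list, Tnmd, was. Red cell markers summed to 3334 to 5413 CPM against 2386 to 4652 CPM, with Hbb-y at 1775, 1053 and 974 CPM against 732, 751 and 1402 CPM. Endothelial markers summed to 562 to 622 CPM against 585 to 670.4 CPM. Of 20, 13 had a log2 fold change above 0 and 7 below, at a median of 0.069, with 4 higher and 1 lower without overlap. Flt1 had the largest rise, at 28.5 and 43.3 CPM (adjusted p = 0.0916). The 2 most abundant, Kdr and Cdh5, had log2 fold changes of 0.069 and -0.061, and Cldn5 had -0.46 (adjusted p = 0.151). Muscle progenitor markers summed to 683 to 695 CPM against 595 to 670 CPM, with 3 of 11 higher and 2 lower without overlap. Neural crest and neuron markers summed to 141 to 154 CPM against 146 to 164 CPM, with 2 of 11 higher and 3 lower. Cardiac markers summed to 4.03 to 26.8 CPM against 11.4 to 14.5 CPM, with 0 of 4 tested higher and 0 lower. The forelimb mesenchyme markers, given above, had the lower sum in the deficient buds. The part of these cells in the changes above was not tested.

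A second mutant of the same bud, with Hand2 lost from the limb mesenchyme, shares no library with this comparison, but stage, gene, kind of loss and depth differ together and cannot be told apart. Of 147 genes called here and tested there 31 were called there as well (21.1% of these, and 1.8% of the 1725 called there), beside 11.4% of the 15089 genes tested in both. Of the 31, 27 had the same direction and 4 the opposite one. The test of the difference between both effects, in a fit of all 12 libraries, called 273 of 15130 genes (1.8%), among them 22 of the 74 higher and 18 of the 41 lower genes outside the lists. The 74 and 41 were chosen by their effect in libraries that also enter this test, which favours a call of the difference. Olfm1 and Dcun1d4 fell in both, and the difference was called for both (adjusted p = 0.00994 and 0.0485). Gltp had a log2 fold change of -0.69 against 0.13 (difference adjusted p = 0.000556). Pitx1 rose by 4.38 here and by 1.39 there (difference adjusted p = 0.00607). Mmp17 had 1.07 against -0.22 (0.00412), Tmem114 2.68 against 0.25 (0.00915) and Egfr -0.98 against 0.18 (0.00994).

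For several other genes the difference was not called. Alx4 had log2 fold changes of 0.68 here and 0.97 there (difference adjusted p = 0.318), Wnt5a -0.53 and -0.32 (0.428), Fzd1 0.33 and 0.30 (0.854), Gap43 -0.48 and -0.30 (0.287), Ncam1 0.97 and 0.67 (0.493) and Slit1 1.21 and 1.05 (0.845). The 4 genes with opposite calls were Wif1 (-0.83 here and 0.84 there), Pcdh17 (-0.72 and 0.55), Bhlhe41 (1.44 and -0.85) and Map1b, a microtubule-associated protein gene named for this pattern alone (0.50 and -0.26). The difference was called for each of these 4 (adjusted p from 0.00519 to 0.00894).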

How the data were processed

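Gene-level expected counts of 6 forelimb bud libraries (RNA from flash-frozen buds, SMARTer kit, 85 bp single-end reads) were used as deposited. The authors deposited expected counts from RSEM 1.3.0 on the mm10 genome, with STAR 2.5.2 and FastQC 0.11.4 also listed, per the submitters' processing notes. RSEM divides reads among near-identical genes by estimate, and strand is not given in the sources used here, so pseudogenes, gene copies and antisense RNAs are uncertain. Counts were rounded to whole numbers. Of 53465 genes 53360 had a symbol in GENCODE M21.

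Genes were kept by filterByExpr (count 10, total 15) and tested with edgeR 4.0.16 (TMM, quasi-likelihood F test, R 4.3.3), with Benjamini-Hochberg adjustment over all genes tested and a threshold of 0.05. Alternatives were DESeq2 1.42.0, limma-voom (limma 3.58.1), other scalings and filters, a fit of all 4 groups, a replicate block, sex as a covariate and leaving out each library. Fits were tested on simulated counts. P-values set the group difference against the spread between these embryos, which in the deficient group includes both sexes.

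The comparison and the gene lists were chosen with earlier results of these data known. Named genes were Tbx3, the 10 with the smallest p, the 20 largest rises and falls at 5 CPM or more, calls held without each library, called list members, the 3 smallest p of lists with no call, and the 2 most abundant other-cell markers. The text does not print every one of them. Cxcl12, Hmx1, Map1b, Meg3, Mirg, Pde7b, Pou4f1, Rspo1, Sp9 and Tshz2 were named outside this rule, after their values were seen.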

Additional observations from a re-analysis of the deposited data

How the results depend on the processing

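Of the 153 calls (110 higher, 43 lower) and the 115 outside the lists (74 and 41), counts stayed within 1.5 times with RLE or upper-quartile scaling and a filter of 1 CPM in 3 libraries. They were 504 (359 and 145) and 448 outside (311 and 137) with no low-count filter, 551 (367 and 184) and 496 outside (318 and 178) with DESeq2, and 422 (250 and 172) and 377 outside (209 and 168) in the fit of all 4 groups. Limma-voom gave 99 (25 lower) and 70 outside (47 and 23). Sex as a covariate gave 22 (21 and 1) and 15 outside (14 and 1), and female embryos only, added after seeing the data, gave 57 (49 and 8) and 28 outside (23 and 5). Leaving out 1 library gave 23 to 220 calls (15 to 165 higher, 8 to 55 lower) and 20 to 169 outside (12 to 123 higher, 8 to 46 lower). The lowest totals, 23 and 40, came without wild-type replicates 2 and 3.

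The replicate numbers did not pair the libraries: deviations of same-numbered libraries correlated at 0.0741, 0.0131 and -0.008 across genes, and only wild-type replicate 1 correlated best with its own number. The replicate block gave 87 calls (69 and 18) and 52 outside (35 and 17). Of 65 called genes named in the text, 33 were called with the block, 45 with limma-voom, 60 in the fit of all 4 groups, 10 with sex as a covariate and 14 to 50 with 1 library left out. None of them changed direction under any of these alternatives. Tbx3, not called, had log2 fold changes of -0.034 to 0.031 with 1 library left out, above 0 when replicate 3 of the wild types (0.0039) or of the deficient buds (0.031) was dropped, and Hbb-y 0.145 with sex as a covariate and 0.146 in females. The promoter shares of 0, 0 and 0.794% for AGGTGTGA (called higher, called lower, all tested) were 20.5% (16 of 78), 20% (6 of 30) and 18.0% for the core GGTGTG. Counts behind Pde7b, Rplp0-ps1 and Csf1r are low, which limits their precision.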
